A study of Saccharomyces cerevisiae with 8 samples.

Results

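The eisosome and SUR7 family genes of Saccharomyces cerevisiae were followed as a group of 8 genes among the 5449 measured. They were FMP45, SUR7, YNL194C and PUN1 of the SUR7 family, PIL1 and LSP1 of the eisosome core, and NCE102 with its homologue FHN1. They were found by the gene symbol that the array annotation gives to each probe set, and each of the 8 was read by 1 probe set. FMP45 was chosen by its fall in both mutants on these same arrays, that is by its fold changes against wild type, so its values are a description and no test of it was made. The other 7 came in as members of the same families and were tested.

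Eisosomes are protein assemblies on the inner face of the yeast plasma membrane, where Pil1p and Lsp1p coat furrow-shaped invaginations. The membrane over them, called the MCC, holds the SUR7 family proteins, which span the membrane several times, together with Nce102p and several nutrient transporters. The Pkh kinases phosphorylate Pil1p and Lsp1p, and eisosomes are known for links to sphingolipid signalling and to the TORC2 kinase complex.

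The study asked how cAMP and protein kinase A (PKA) act on transcription, and measured total RNA on 8 Affymetrix yeast2 arrays. On these arrays each transcript is read by a set of short probes. All 3 strains were of the BY4741 background, and all were grown with 4 mM cAMP added. By the array methods of the study both mutants were grown for 24 h in YPD medium (yeast extract, peptone and glucose). Those methods do not name the wild type cells, for which the same medium and time were assumed. There were 3 arrays of wild type cells, 3 of Δpde2 cells, without the phosphodiesterase that breaks down cAMP with high affinity, and 2 of Δpde2Δtpk3 cells, without Tpk3p as well, a catalytic subunit of PKA. By the strain table of the study all 3 strains are of mating type a with the same background mutations in HIS3, LEU2, MET15 and URA3. In Δpde2 cells PDE2 was replaced by KanMx. In Δpde2Δtpk3 cells PDE2 was replaced by HIS3 and TPK3 by KanMx, and this strain has another origin than the other two. Between both mutants, marker and strain origin cannot be told apart from the loss of TPK3. No culture without added cAMP was among the 8 arrays, and both mutants were compared with the same wild type arrays.

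Levels are log2 values after quantile normalization, which gives all arrays the same distribution. Fold changes come from 1 limma fit of the 3 strains, and a gene was called higher or lower where its p, adjusted over all 5449 genes, was under 0.05. The small number of arrays limits the precision of every value. Nothing in the sources says that the wild type arrays came from separate cultures, so the p-values measure the spread between these arrays. Since whole cultures were measured, fewer cells with a transcript and less of it per cell cannot be told apart.

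Transcripts of the deleted genes followed the labels, with PDE2 at 9.13 to 10.73 on the wild type arrays and 4.89 to 5.18 on the mutant arrays, and TPK3 at 4.37 to 4.97 on the Δpde2Δtpk3 arrays against 8.57 to 8.84 on the other 6 arrays. Among genes mutated in the shared background, LEU2 was at 5.48 to 7.72 and MET17 (MET15) at 5.35 to 8.27 on the 8 arrays. URA3 was at 3.80 to 4.91. HIS3 was at 10.88 to 11.36 on wild type, 11.81 to 11.95 on Δpde2 and 11.11 to 11.53 on Δpde2Δtpk3 arrays. It was thus highest in Δpde2 cells, for which the strain table gives KanMx and not HIS3 as the marker. The cause was not tested. LEU2 was highest on the replicate 1 array of each strain, at 7.23 (wild type), 7.72 (Δpde2) and 7.10 (Δpde2Δtpk3). MET17 was highest on Δpde2 replicate 1 (8.27), followed by wild type replicate 1 (7.39). Wild type replicate 1 differed from its 2 replicates, with correlations across genes of 0.868 and 0.878 against 0.992 between those 2. Its residual SD was 0.604, and that of the other 7 arrays was 0.0983 to 0.340. The 3 genes typical of mating type α were higher on wild type replicate 1 than on any other array, namely MFALPHA1 at 9.20 (5.60 to 7.17 on the other 7), MFALPHA2 at 7.95 (5.97 to 6.16) and STE3 at 9.22 (6.68 to 7.60). Their summed level was 8.52 to 10.48 (log2) on wild type, 8.08 to 8.28 on Δpde2 and 7.80 to 8.15 on Δpde2Δtpk3 arrays. On wild type replicates 2 and 3 MFALPHA1 (7.17 and 6.79) and STE3 (7.60 and 7.57) also lay above the mutant arrays (5.60 to 5.93 and 6.68 to 7.53). MFALPHA2 on those 2 arrays overlapped with the mutants. The 4 genes typical of mating type a were at 10.23 to 13.39 on all 8 arrays. Their summed level was 14.05 to 14.37 on wild type, 14.53 to 14.73 on Δpde2 and 14.41 to 14.61 on Δpde2Δtpk3 arrays. Among the 8 genes followed here, wild type replicate 1 lay above the mean of replicates 2 and 3 by 0.71 for FMP45, 0.90 for SUR7 and 1.29 for FHN1. For the other 5 it lay within -0.19 to 0.18 of that mean, and the median absolute gap over all genes was 0.47. Whether the cells behind that array differed was not tested, and the results below are given with and without it.

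FMP45 in Δpde2 cells was at 3.71% of its level in wild type. Of the other 7 genes, 4 were lower than in wild type (YNL194C, PIL1, NCE102 and FHN1), PUN1 was higher, and SUR7 and LSP1 did not pass the test. Among all genes tested 41.4% were called in this comparison, 21.9% lower and 19.5% higher, so 5 of 7 has to be read against a wide change of the transcriptome. Without wild type replicate 1 the same 5 genes were called, where 60.8% of all genes were. In Δpde2Δtpk3 cells FMP45 was at 16.8% of wild type and none of the other 7 genes was called, where 2.72% of all genes were (1.69% lower and 1.03% higher). The lowest adjusted p of the 7 in that comparison was that of PUN1 (limma adjusted p = 0.0575). With wild type replicate 1 left out PUN1 and SUR7 were called higher, where 17.9% of all genes were called. Between both mutants YNL194C and NCE102 had the lower level in Δpde2 cells and none of the 7 a higher one, where 13% of all genes were called, 7.41% lower and 5.56% higher. PIL1 joined them with wild type replicate 1 left out, where 44.6% of all genes were called.

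**Figure D1:**
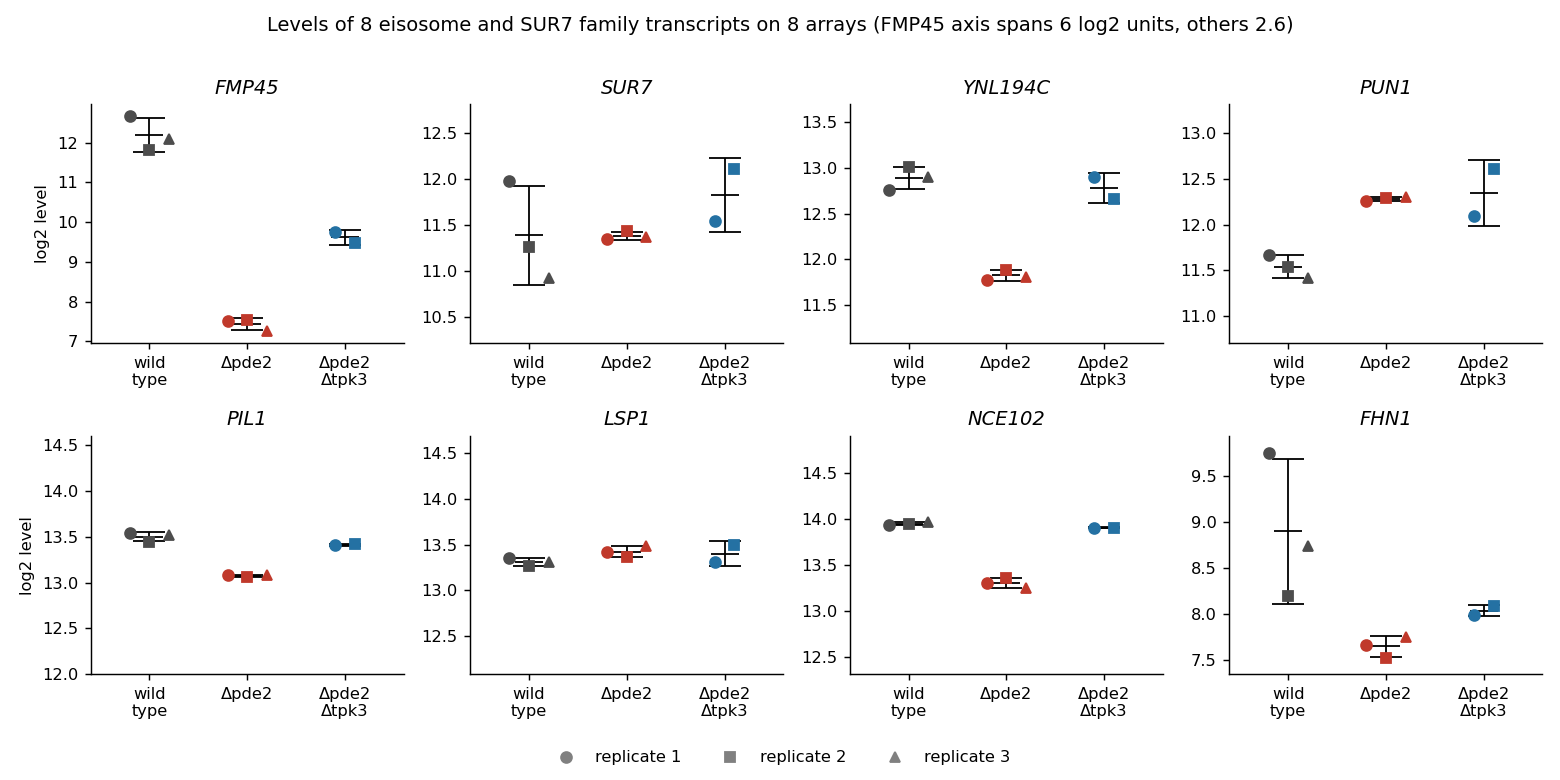
Quantile-normalized log2 level (vertical axis) of each of the 8 genes in wild type, Δpde2 and Δpde2Δtpk3 cells, with 1 symbol per array and a shape for each replicate number. Horizontal lines show the mean and 1 SD either side (n = 3, 3 and 2), and the FMP45 axis is longer than the other 7. FMP45 lay at 7.26 to 7.54 on the Δpde2 arrays and at 11.82 to 12.66 on the wild type arrays, and wild type replicate 1 was the highest wild type array for SUR7 and FHN1.

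FMP45 (YDL222C) encodes a membrane protein of the MCC related to Sur7p, and deletion of it is known to change sphingolipid content and to impair sporulation. Its level was 12.66, 11.82 and 12.08 on the wild type arrays, 7.50, 7.54 and 7.26 on the Δpde2 arrays, and 9.74 and 9.48 on the Δpde2Δtpk3 arrays. The strains did not overlap, with wild type highest, Δpde2 lowest and Δpde2Δtpk3 between them. Against wild type the log2 fold change was -4.75 (SE 0.22) in Δpde2 cells, or 27.0-fold lower, and -2.57 (SE 0.25) in Δpde2Δtpk3 cells, or 5.95-fold lower. In size these were the 9th and the 24th largest changes among the 5449 genes. Between both mutants the log2 fold change was -2.18 (SE 0.25), which left Δpde2 cells at 22.1% of the Δpde2Δtpk3 level. Without wild type replicate 1 the values against wild type were -4.52 and -2.34, which are 4.37% and 19.8% of wild type. Its signal in Δpde2 cells was low, at percentile 6.40 of the gene means, which limits how well the size of that fall is known. Over the alternative settings the log2 fold change in Δpde2 cells against wild type ran from -4.94 to -4.39.

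YNL194C (YNL194C) is the paralogue of FMP45 and also encodes a membrane protein of the MCC. Its level was 12.76, 13.01 and 12.90 on the wild type arrays, 11.77, 11.89 and 11.81 on the Δpde2 arrays, and 12.90 and 12.66 on the Δpde2Δtpk3 arrays. The Δpde2 arrays lay below all others, while the Δpde2Δtpk3 arrays overlapped with wild type. It was at 47.8% of wild type in Δpde2 cells (log2 fold change -1.06, SE 0.12, limma adjusted p = 0.000814) and at 51.6% of the Δpde2Δtpk3 level (-0.95, SE 0.13, adjusted p = 0.0104). In Δpde2Δtpk3 cells it was at 92.6% of wild type and did not pass (adjusted p = 0.642), with a 95% confidence interval of 74.6% to 115%. These values were 45.7% (adjusted p = 0.000112), 51.6% (0.000754) and 88.5% (0.305) when wild type replicate 1 was left out. The call against wild type was kept in all 17 alternative settings. That between both mutants was lost with a block for the replicate number, and without Δpde2 replicate 1, Δpde2 replicate 3 or Δpde2Δtpk3 replicate 1.

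FMP45 and YNL194C were thus both below wild type in Δpde2 cells, but by -4.75 and -1.06 on the log2 scale. In Δpde2Δtpk3 cells their values were -2.57 and -0.11. The difference between the 2 genes was not tested, as FMP45 was chosen for its fall.

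SUR7 (YML052W) encodes the protein for which the family is named and which is the usual marker of the MCC. Its level was 11.98, 11.25 and 10.92 on the wild type arrays, 11.34, 11.43 and 11.37 on the Δpde2 arrays, and 11.54 and 12.11 on the Δpde2Δtpk3 arrays. The wild type arrays were widely spread and overlapped with both mutants, while both Δpde2Δtpk3 arrays lay above the Δpde2 arrays. In Δpde2 cells it was at 99.8% of wild type (log2 fold change -0.0033, SE 0.28, adjusted p = 0.994), with a 95% confidence interval of 63.1% to 158%. In Δpde2Δtpk3 cells it was at 136% of wild type (0.44, SE 0.31, adjusted p = 0.448, interval 81.4% to 226%). Between both mutants Δpde2 cells were at 73.5% of the Δpde2Δtpk3 level (-0.44, SE 0.31, adjusted p = 0.399, interval 44.1% to 123%). All 3 values depended on single arrays. Without wild type replicate 3 the first log2 fold change was -0.24. Over the alternative settings the second ran from 0.16 to 0.82 and the third from -0.73 to -0.16. Without wild type replicate 1, which was the highest of its strain, SUR7 was at 123% of wild type in Δpde2 cells (adjusted p = 0.182). In Δpde2Δtpk3 cells it was then at 167%, which passed (adjusted p = 0.0374). The comparison between both mutants still did not pass (0.0749). The α-type transcripts given above were also highest on that array, and their part in this result was not tested.

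PUN1 (YLR414C) encodes a plasma membrane protein of the family that is known to be induced by nitrogen stress and to act in cell wall integrity. Its level was 11.66, 11.54 and 11.42 on the wild type arrays, 12.26, 12.29 and 12.30 on the Δpde2 arrays, and 12.09 and 12.60 on the Δpde2Δtpk3 arrays. All 5 mutant arrays lay above the wild type arrays, and both mutants overlapped with each other. It was the one gene of the 7 called higher in Δpde2 cells, at 167% of wild type (log2 fold change 0.74, SE 0.15, adjusted p = 0.00799), a call kept in all 17 alternative settings. In Δpde2Δtpk3 cells it was at 175% of wild type (0.81, SE 0.17) but missed the threshold (adjusted p = 0.0575). Leaving out wild type replicate 1 put it at 174% (adjusted p = 0.00237) and at 182%, which passed (0.0127). Between both mutants Δpde2 cells were at 95.6% of the Δpde2Δtpk3 level (adjusted p = 0.848), with an interval of 72.6% to 126%, and at the same 95.6% without that array (adjusted p = 0.737). The 2 Δpde2Δtpk3 arrays differed by 0.51 for PUN1 and 0.57 for SUR7, with replicate 2 the higher for both genes.

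**Figure D2:**
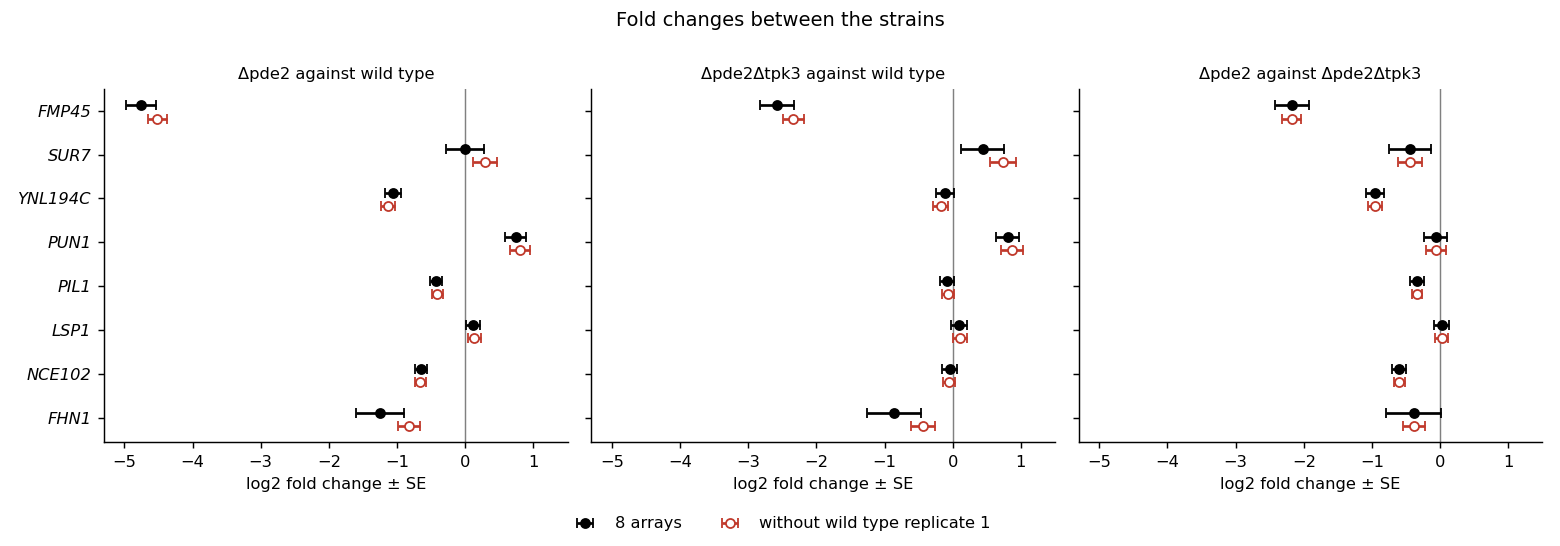
Log2 fold change with 1 SE either side (horizontal axis) of each of the 8 genes in the 3 comparisons, from 8 arrays (filled) and without wild type replicate 1 (open). FMP45 had the lowest value in each comparison, at -4.75, -2.57 and -2.18. PUN1 lay above 0 against wild type in both mutants, and leaving out wild type replicate 1 shifted SUR7 and FHN1 upward against wild type.

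PIL1 (YGR086C) and LSP1 (YPL004C) encode the 2 related BAR domain proteins that form the eisosome coat, of which Pil1p is the one that cells need to build eisosomes. PIL1 was at 13.54, 13.44 and 13.52 on the wild type arrays, 13.08, 13.06 and 13.08 on the Δpde2 arrays, and 13.41 and 13.42 on the Δpde2Δtpk3 arrays. The 3 strains did not overlap, and the Δpde2 arrays were the lowest. LSP1 was at 13.35, 13.27 and 13.31 on the wild type arrays, 13.42, 13.36 and 13.48 on the Δpde2 arrays, and 13.31 and 13.50 on the Δpde2Δtpk3 arrays. For LSP1 each Δpde2 array was above each wild type array by a narrow margin, and the Δpde2Δtpk3 arrays overlapped with both other strains.

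PIL1 was at 74.4% of wild type in Δpde2 cells (log2 fold change -0.43, SE 0.092, adjusted p = 0.0100), which passed in all 17 alternative settings. It was at 79.0% of the Δpde2Δtpk3 level (-0.34, SE 0.10) and did not pass there (adjusted p = 0.0767), but without wild type replicate 1 it did (0.0117). In Δpde2Δtpk3 cells PIL1 was at 94.1% of wild type (adjusted p = 0.637, interval 79.5% to 111%). LSP1 did not pass in any comparison or setting. It was at 108% of wild type in Δpde2 cells (adjusted p = 0.416, interval 91.1% to 128%) and at 106% in Δpde2Δtpk3 cells (adjusted p = 0.668, interval 88.1% to 128%). Between both mutants LSP1 in Δpde2 cells was at 101% of the Δpde2Δtpk3 level (adjusted p = 0.933, interval 84.0% to 122%). With wild type replicate 1 left out PIL1 was at 75.3% of wild type in Δpde2 cells (adjusted p = 0.00327) and at 95.4% in Δpde2Δtpk3 cells (0.620), and LSP1 at 109% (0.267) and 108% (0.488), with 0.874 for LSP1 between both mutants. PIL1 and LSP1 therefore fell on different sides of the threshold in Δpde2 cells, and the difference between the 2 genes was not tested.

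NCE102 (YPR149W) encodes a membrane protein of the MCC that is known to sense sphingolipids and to restrain the Pkh kinases. Its level was 13.93, 13.95 and 13.96 on the wild type arrays, 13.30, 13.35 and 13.25 on the Δpde2 arrays, and 13.91 and 13.90 on the Δpde2Δtpk3 arrays. The Δpde2 arrays were far below the others, and the Δpde2Δtpk3 arrays were just below wild type. It was at 63.8% of wild type in Δpde2 cells (log2 fold change -0.65, SE 0.093, adjusted p = 0.00190) and at 65.9% of the Δpde2Δtpk3 level (-0.60, SE 0.10, adjusted p = 0.0170). In Δpde2Δtpk3 cells it was at 96.8% of wild type (adjusted p = 0.804, interval 81.7% to 115%). The 3 values were 63.4% (adjusted p = 0.000397), 65.9% (0.00158) and 96.3% (0.707) with wild type replicate 1 left out. The call against wild type was kept in all 17 alternative settings. A block for the replicate number, or leaving out any 1 of the 5 mutant arrays, ended the call between both mutants.

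FHN1 (YGR131W) encodes the homologue of Nce102p, which can take over some of its functions. Its level was 9.76, 8.20 and 8.74 on the wild type arrays, 7.66, 7.52 and 7.75 on the Δpde2 arrays, and 7.99 and 8.08 on the Δpde2Δtpk3 arrays. Wild type was spread over 1.56 log2 units, with replicate 1 the highest, yet no mutant array reached it, and the Δpde2 arrays were the lowest. In the values as deposited Δpde2Δtpk3 replicate 1 (7.83) was instead below the Δpde2 arrays (7.84 to 7.91). FHN1 had a low signal in both mutants, at percentile 7.12 (Δpde2) and 9.32 (Δpde2Δtpk3) of the gene means. It was at 42.0% of wild type in Δpde2 cells (log2 fold change -1.25, SE 0.36, adjusted p = 0.0280) and at 55.0% in Δpde2Δtpk3 cells, which did not pass (-0.86, SE 0.40, adjusted p = 0.284, interval 28.7% to 105%). Δpde2 cells were at 76.4% of the Δpde2Δtpk3 level (adjusted p = 0.577, interval 39.8% to 146%). Its values were 56.5% (adjusted p = 0.00330), 74.0% (0.129) and 76.4% (0.0857) with wild type replicate 1 left out. The call against wild type was lost without wild type replicate 3 or any 1 of the Δpde2 arrays (adjusted p up to 0.0889). The part of the α-type transcripts on wild type replicate 1 in the size of this fall was not tested.

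Counted by overlap of the arrays alone, 4 of the 7 genes were lower and 2 higher in each Δpde2 array than in each wild type array (30.9% and 31.1% of all genes, 62% in all). In Δpde2Δtpk3 against wild type 3 were lower and 1 higher (21% and 16% of all genes, 36.9% in all). Between both mutants 5 were lower in Δpde2 cells and none higher (30.6% and 34%, 64.6% in all). FHN1 was among these 5, but its arrays overlapped in the values as deposited. The median log2 fold change of the 7 genes was -0.43 in Δpde2 and -0.047 in Δpde2Δtpk3 cells against wild type, and -0.39 between both mutants, beside medians over all genes of 0.031, 0.00018 and 0.016. With wild type replicate 1 left out 4 of the 7 were lower and 3 higher in Δpde2 cells (38.7% and 41.6% of all genes), and 4 lower and 2 higher in Δpde2Δtpk3 cells (29.5% and 27.8%). The medians of the 7 were then -0.41 and -0.055, and the values between both mutants stayed as they were, since that array does not enter them.

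Each gene was centred on its own mean over the 8 arrays, and the root mean square difference from the FMP45 profile was taken as the measure of likeness. The median over all other genes was 2.10. The 5 nearest genes were NDE2 (0.30), which encodes an external NADH dehydrogenase of mitochondria, YOR186W (0.35), SHH4 (0.36), a homologue of a membrane anchor subunit of succinate dehydrogenase, NCA3 (0.39), a gene of the SUN family, and CSM4 (0.55), which acts in meiotic chromosome movement. Since FMP45 was chosen by its fall and these genes by their likeness to it, their order and the size of their falls were set by that choice. All 5 were highest on the wild type arrays, lowest on the Δpde2 arrays and between them on the Δpde2Δtpk3 arrays. Against wild type their log2 fold changes ran from -4.94 (NCA3) to -3.61 (CSM4) in Δpde2 cells, and from -3.22 (YOR186W) to -1.58 (CSM4) in Δpde2Δtpk3 cells. The same 5 genes came first, in the same order, without wild type replicate 1.

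**Figure D3:**
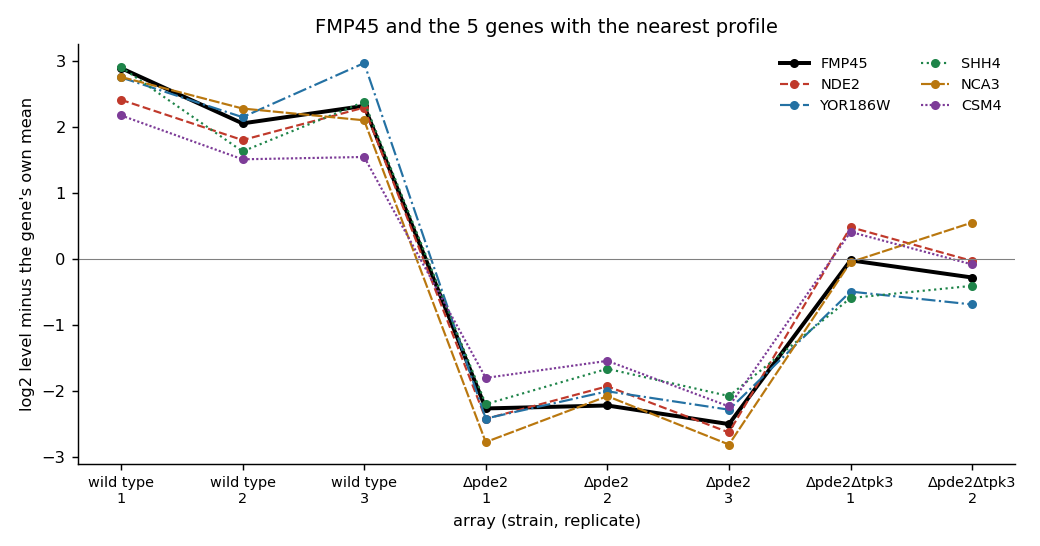
Centred log2 level (the gene's level minus its own mean over the 8 arrays, vertical axis) of FMP45 and the 5 genes nearest to it on each array (horizontal axis). All 6 lines are above 1.5 on the wild type arrays, below -1.5 on the Δpde2 arrays and between -0.69 and 0.56 on the Δpde2Δtpk3 arrays.

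None of the other 7 genes was among the nearest to FMP45 by this measure. Among the 5448 other genes FHN1 ranked 306 (1.53), YNL194C 505 (1.64), NCE102 1044 (1.80) and PIL1 1444 (1.89). SUR7 ranked 2691 (2.09), LSP1 2891 (2.12) and PUN1 4513 (2.41). The SUR7-like gene FAT3, named here after its value was seen, ranked 36 (1.02), ahead of all 7. The measure depends on the size of the change as well as its shape, so a gene with small changes cannot lie near FMP45.

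The genes of 6 related lists are given next, and in each list the count has to be read against the share of all genes called, which was 41.4% in Δpde2 and 2.72% in Δpde2Δtpk3 cells against wild type and 13% between both mutants. With wild type replicate 1 left out these shares were 60.8%, 17.9% and 44.6%. In no list was a difference from the other genes tested. Of 10 genes for other proteins known at eisosomes, 3 were lower in Δpde2 cells than in wild type (21.9% of all genes), none was higher, and 7 did not pass, with a median of -0.15. They were XRN1, the exonuclease that degrades decapped mRNA (log2 fold change -0.89, SE 0.13, adjusted p = 0.00200), MSC3 (-0.81, SE 0.13, adjusted p = 0.00321) and the flavodoxin-like gene YCP4 (-0.33, SE 0.099, adjusted p = 0.0337). XRN1 was at 11.46, 11.56 and 11.56 on the wild type arrays, 10.80, 10.58 and 10.54 on the Δpde2 arrays, and 11.37 and 11.07 on the Δpde2Δtpk3 arrays. The Δpde2 arrays were below all others, and XRN1 also passed between both mutants (-0.58, SE 0.14, adjusted p = 0.0424), the 1 gene of the list called there. None of the 10 was called between Δpde2Δtpk3 and wild type. Leaving out wild type replicate 1, the list had 5 lower and 1 higher in Δpde2 cells against wild type, 4 lower and 1 higher between both mutants and still none in Δpde2Δtpk3 cells.

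Of 4 measured genes for other proteins of the SUR7-like kind, FAT3 was lower and RIM9 higher in Δpde2 cells, against wild type and against Δpde2Δtpk3 cells alike. FAT3, named for a role in fatty acid uptake, was at 11.79, 10.85 and 11.18 on the wild type arrays, 8.81, 8.92 and 8.69 on the Δpde2 arrays, and 9.85 and 10.34 on the Δpde2Δtpk3 arrays. The order of the strains was that of FMP45, with no overlap. Its log2 fold change was -2.46 (SE 0.25, adjusted p = 0.000615) in Δpde2 cells against wild type and -1.29 (SE 0.28, adjusted p = 0.0297) against Δpde2Δtpk3 cells. RIM9, which acts in the sensing of external pH, was at 8.53, 7.71 and 7.74 on the wild type arrays, 9.16, 9.03 and 9.18 on the Δpde2 arrays, and 8.18 and 7.84 on the Δpde2Δtpk3 arrays. The Δpde2 arrays were above all others (1.13, SE 0.23, adjusted p = 0.00853 against wild type, and 1.12, SE 0.26, adjusted p = 0.0364 against Δpde2Δtpk3). Neither gene was called between Δpde2Δtpk3 and wild type cells, although FAT3 was the 1 gene of this list that passed there without wild type replicate 1. Of 3 genes for BAR domain proteins outside the eisosome, the 2 amphiphysin-type genes, which act in endocytosis, moved apart in Δpde2 cells, with RVS161 higher (1.23, SE 0.33, adjusted p = 0.0218) and RVS167 lower (-0.50, SE 0.14, adjusted p = 0.0230) than in wild type. GVP36 did not pass, and none of the 3 was called in the other comparisons, while without wild type replicate 1 the list had 1 lower and 1 higher between both mutants too.

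Of 5 transporters that can gather in the MCC or are close relatives of those, the tryptophan permease TAT2 (-0.96, SE 0.25, adjusted p = 0.0188) and the lysine permease LYP1 (-0.54, SE 0.14, adjusted p = 0.0196) were below wild type in Δpde2 cells, where 21.9% of all genes were. The arginine permease CAN1, the uracil permease FUR4 and the methionine permease MUP1 did not pass, and none of the 5 was called in the other comparisons. Without wild type replicate 1 there were 2 lower and 1 higher against wild type (60.8% of all genes called) and 2 lower between both mutants (44.6%).

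Of 14 genes for the Pkh and Ypk kinases, the Slm proteins and the TORC2 complex, 6 were lower and 1 higher in Δpde2 cells than in wild type, beside 21.9% and 19.5% of all genes. The other 7 did not pass, the median was -0.30, and 2 were lower than in Δpde2Δtpk3 cells (7.41% of all genes). TOR2, the kinase of TORC2, was at 11.15, 10.56 and 10.81 on the wild type arrays, 9.25, 9.22 and 8.98 on the Δpde2 arrays, and 10.05 and 9.88 on the Δpde2Δtpk3 arrays. The strains did not overlap, and the fold change was -1.69 (SE 0.17, adjusted p = 0.000599) against wild type and -0.81 (SE 0.19, adjusted p = 0.0368) against Δpde2Δtpk3. AVO1, a further TORC2 subunit, fell by 0.85 (SE 0.13, adjusted p = 0.00281) and by 0.72 (SE 0.15, adjusted p = 0.0254) in the same 2 comparisons. PKH1, one of the kinases that phosphorylate Pil1p and Lsp1p, was lower than in wild type (-0.68, SE 0.16, adjusted p = 0.0134), and the TORC2 subunit BIT61 was higher (0.70, SE 0.17, adjusted p = 0.0158). In Δpde2Δtpk3 cells none of the 14 was called against wild type. Without wild type replicate 1 there were 8 lower and 2 higher in Δpde2 cells against wild type, 2 lower and 2 higher in Δpde2Δtpk3 cells, and 2 lower and 1 higher between both mutants.

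**Figure D4:**
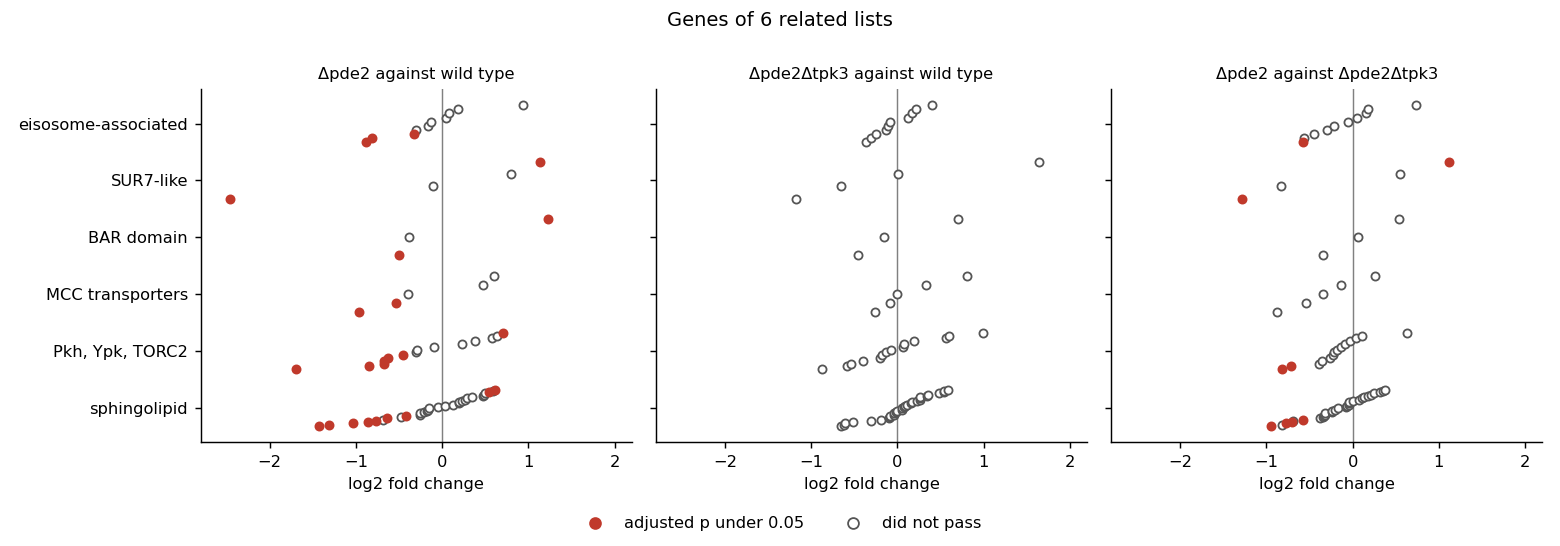
Log2 fold change (horizontal axis) of each measured gene of 6 lists of related genes in the 3 comparisons, filled where the adjusted p was under 0.05. In Δpde2 cells against wild type called genes lie on both sides of 0, from FAT3 at -2.46 to RVS161 at 1.23, and none is filled in Δpde2Δtpk3 cells against wild type.

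Of 30 genes of sphingolipid synthesis and breakdown, 7 were lower and 2 higher than wild type in Δpde2 cells and 21 did not pass, with a median of -0.10. In all genes 41.4% were called, 21.9% lower. TSC10, which makes dihydrosphingosine from its keto precursor, was at 11.95, 11.09 and 11.30 on the wild type arrays, 10.00, 10.08 and 9.96 on the Δpde2 arrays, and 10.66 and 11.00 on the Δpde2Δtpk3 arrays. It was the most lowered of the list (-1.43, SE 0.23, adjusted p = 0.00292), followed by the phosphatase gene YSR3 (-1.31, SE 0.36, adjusted p = 0.0238). The paralogues ORM1 and ORM2, which both restrain serine palmitoyltransferase, moved in opposite directions, ORM1 lower (-1.03, SE 0.21, adjusted p = 0.00768) and ORM2 higher (0.55, SE 0.11, adjusted p = 0.00752). ORM1 was at 11.16, 10.31 and 10.74 on the wild type arrays, 9.65, 9.81 and 9.64 on the Δpde2 arrays, and 10.70 and 10.60 on the Δpde2Δtpk3 arrays. ORM2 was at 12.90, 12.67 and 12.77, at 13.33, 13.27 and 13.37, and at 13.09 and 12.93 in the same order. The Δpde2 arrays were thus the lowest for ORM1 and the highest for ORM2, without overlap. LCB4, a kinase of sphingoid bases, was higher too (0.61, SE 0.11, adjusted p = 0.00552). Between both mutants 4 of the 30 were lower in Δpde2 cells (7.41% of all genes), the largest falls being in ORM1 (-0.95, SE 0.23, adjusted p = 0.0416), the ceramidase gene YPC1 (-0.77, SE 0.14, adjusted p = 0.0190) and IPT1, which makes the last complex sphingolipid (-0.71, SE 0.13, adjusted p = 0.0198). None was called in Δpde2Δtpk3 cells against wild type. Without wild type replicate 1 the counts were 8 lower and 8 higher in Δpde2 cells, 1 lower and 5 higher in Δpde2Δtpk3 cells, and 11 lower and 3 higher between both mutants.

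In Δpde2 cells against wild type, leaving out wild type replicate 1 moved 2 of the genes named from these lists by over 1.5 times. They were RVS161, from 1.23 to 0.81 (adjusted p = 0.000252), and YSR3, from -1.31 to -0.86 (adjusted p = 0.000619). Against wild type in Δpde2 cells leaving out that array left FAT3 at -2.21, TOR2 at -1.54, TSC10 at -1.18, XRN1 at -0.92, AVO1 at -0.84, ORM1 at -0.82 and TAT2 at -0.76. MSC3 was then at -0.70, PKH1 at -0.55, LYP1 at -0.40, RVS167 at -0.39 and YCP4 at -0.28, and of the higher genes RIM9 was at 1.40, BIT61 at 0.85, ORM2 at 0.60 and LCB4 at 0.55. All of these passed without that array (adjusted p up to 0.0186). The fold changes named between both mutants did not change, and their adjusted p ran from 0.000746 (RIM9) to 0.00870 (XRN1).

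Of the genes named from these lists, XRN1, MSC3, FAT3, RIM9, TOR2, TSC10, ORM1, ORM2 and LCB4 kept their call against wild type in every alternative setting in which they were measured. RVS161, RVS167, YSR3, LYP1 and YCP4 lost it with any 1 of the Δpde2 arrays left out, with an adjusted p of at most 0.111 in any setting, and YCP4 also without wild type replicate 2 or 3. TAT2, BIT61 and PKH1 lost it without some Δpde2 arrays (up to 0.0738), and AVO1 with the values as deposited (0.0598). Each of the calls named above between both mutants was lost without any 1 of the Δpde2 arrays and without at least 1 of the Δpde2Δtpk3 arrays (adjusted p up to 0.199), and those of XRN1, FAT3, RIM9, TOR2 and ORM1 also without wild type replicate 3. Values as deposited ended the calls of AVO1, FAT3, TOR2 and ORM1 between both mutants, and median centring those of XRN1, AVO1, TOR2 and ORM1.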

How the data were processed

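Saccharomyces cerevisiae RNA was measured on 8 Affymetrix yeast2 arrays of 3 strains. Per the methods of the study the authors used limma for the tests and dChip for quality control. The values deposited by the authors are 1 number per probe set on what their range shows to be a log2 scale, and their normalization is not given in the sources used here. First quartiles of the deposited columns ran from 9.00 to 9.38, and the values were therefore quantile normalized. The platform annotation gives 1 gene to 5498 of the 5814 probe sets and none to 316, which were left out. Where a gene had several probe sets (47 genes), only that with the highest mean entered, for 5449 genes in all. A total of 14 symbols were updated.

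One fit (limma 3.58.1, R 4.3.3) held all 8 arrays in 3 groups, which left 5 residual degrees of freedom. Tests were two-sided and moderated by empirical Bayes, with Benjamini-Hochberg adjustment over the 5449 genes. Percentages of another strain are 2 raised to the log2 fold change, and 95% confidence intervals are not adjusted. The code was tested on simulated data. The genes and the 6 lists of related genes (eisosome-associated, SUR7-like, BAR domain, MCC transporters, Pkh, Ypk and TORC2, sphingolipid) were chosen with earlier results of these data known, the lists from general knowledge of yeast. Named from each list were up to 3 called genes in each direction and comparison with the largest change, and for FMP45 the 5 genes with the nearest profile. TOS7 of the SUR7-like list was not analysed here. The alternatives were values as deposited, median centring, normalization without wild type replicate 1, the mean of probe sets, leaving out the genes with the lowest 33.3 percent of signal, only the arrays compared, array weights, moderation with a trend and robustness, a block for the replicate number and each array left out in turn. Per the methods both mutants were cultured in triplicate. The arrays used here include 2 of Δpde2Δtpk3. No sequences were used.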

Additional observations from a re-analysis of the deposited data

How the results depend on the processing

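Precision is limited by the 3, 3 and 2 arrays, and the strains share an estimate of spread that wild type replicate 1 widens, also between both mutants. With 1 Δpde2Δtpk3 array left, that array was assumed to vary like the other strains. Of the 7 genes beside FMP45, 5 were called in Δpde2 against wild type, 6 with array weights (SUR7 as well), 4 with the lowest 33.3 percent of signal left out, which removed FHN1, and 4 to 5 with an array left out. In Δpde2Δtpk3 against wild type 0 were called, 2 after normalization without wild type replicate 1 and with array weights (PUN1 and SUR7 each time), 1 with the lowest 33.3 percent of signal left out and with trend and robust moderation (PUN1), and 0 to 2 with an array left out (2 without wild type replicate 1, 1 without Δpde2Δtpk3 replicate 1). Between both mutants 2 were called, 4 with only the arrays of these strains (FHN1, NCE102, PIL1 and YNL194C), 3 after normalization without wild type replicate 1, with the lowest 33.3 percent left out, with trend and robust moderation and with array weights (PIL1 as well each time), 0 with the replicate block, and 0 to 3 with an array left out, namely 0 without Δpde2 replicate 1, Δpde2 replicate 3 or Δpde2Δtpk3 replicate 1, 1 without Δpde2 replicate 2 or Δpde2Δtpk3 replicate 2, and 3 without wild type replicate 1. These counts have to be read against the share of all genes called. In the full fit it was 41.4% in Δpde2 and 2.72% in Δpde2Δtpk3 cells against wild type, and 13% between both mutants. Without wild type replicate 1 it was 60.8%, 17.9% and 44.6% in the same order. For the other settings that share is not given, so a changed count there cannot be told from a change over all genes. Deviations of samples with the same replicate number correlated at -0.09 to 0.19 between strains. With so few arrays these values cannot decide whether the numbers pair the samples. LEU2 was highest on the replicate 1 array of each strain. The block left 5 calls in Δpde2 and 0 in Δpde2Δtpk3 cells against wild type. It ended the calls of LYP1 and YCP4 there in Δpde2 cells. Between both mutants it ended those of YNL194C, NCE102, XRN1, FAT3, RIM9, TOR2, AVO1, ORM1, YPC1 and IPT1.

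Direction changed for values that were not called with all 8 arrays in the one fit, and of the changed values only that of SUR7 with array weights passed. SUR7 in Δpde2 cells against wild type was 0.30 (log2) after normalization without wild type replicate 1, 0.37 with array weights (adjusted p = 0.0166), and -0.24 to 0.30 with an array left out. LSP1 between both mutants was -0.0036 as deposited, -0.047 with median centring, and -0.076 to 0.12 with an array left out. In Δpde2Δtpk3 cells against wild type TAT2 was 0.11, LYP1 0.13 and ORM1 0.12 after normalization without wild type replicate 1, and 0.18, 0.13 and 0.0029 with array weights, while RIM9 was -0.036 with the replicate block. With an array left out, values in that comparison ran from -0.23 to 0.0081 for YNL194C, -0.0072 to 0.18 for LSP1, -0.40 to 0.23 for TAT2, -0.070 to 0.14 for LYP1, -0.098 to 0.22 for BIT61, -0.31 to 0.056 for AVO1, -0.30 to 0.12 for ORM1, -0.017 to 0.15 for IPT1 and -0.16 to 0.28 for RIM9. Between both mutants they ran from -0.32 to 0.19 for PUN1 and from -0.29 to 0.10 for PKH1. The cause was not tested.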
